A study of Chromochloris zofingiensis with 38 samples.

Results

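The comparison described here is between 3 libraries labelled GA (replicates 1, 3 and 4) and 4 libraries labelled Glu (replicates 1 to 4), all taken at 24 h from wild-type cultures of Chromochloris zofingiensis, a unicellular green alga. These 7 libraries were picked out by their labels from 38 in the series, with earlier results of these data known. The series asks how inhibition of the kinase TOR by AZD and the addition of glucose change the transcriptome. Glu is the glucose group. GA carries the initials of glucose and AZD, and the labels do not spell it out, so the reading as glucose-fed cells with the inhibitor is the working one and the group is called GA throughout. The labels give no dose and no solvent for either addition, and the inhibitor is named only as AZD. All groups share the genotype (WT) and the same cell-pellet extraction and poly(A) libraries. The groups None (no addition, 4 libraries), AZD (4 libraries) and S (4 libraries, not spelled out in the labels) at 24 h, and None, S, Glu and GA (4 libraries each) and AZD (3 libraries) at 1 h, are used only where they show how GA and Glu at 24 h stand.

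TOR (target of rapamycin) kinase promotes growth when nutrients and energy are at hand, chiefly by raising ribosome production and translation and by holding back autophagy. ATP-competitive inhibitors of the kinase reproduce, in many eukaryotes, part of the response to starvation. C. zofingiensis takes up glucose. With glucose in the medium it is known to reduce its photosynthetic apparatus reversibly and to accumulate storage lipid and the ketocarotenoid astaxanthin. The deposited table identifies genes by ID only and pairs no ID with a name or product. The genes below are therefore given by ID and level, with no role.

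The GA libraries held 46925325, 36304063 and 55464393 estimated counts (replicates 1, 3 and 4). The Glu libraries held 40023775, 106150532, 53095088 and 31450099 (replicates 1 to 4). Replicate 2 of Glu was by far the deepest of the 7, and the shallowest of the 7 was also a Glu library. The median over genes of the SD of log2 CPM within a group was 0.17 in GA (n = 3) and 0.19 in Glu (n = 4). The distance of a library from its fellow replicates was 0.29 to 0.46, as the root mean square log2 difference from their mean over 12142 genes, while the means of GA and Glu lay 1.73 apart and those of GA and None 2.12 apart. The labels do not say whether the replicates were grown as separate cultures. The p-values below rest on the spread within groups over all 38 libraries, fitted together in 10 groups, and not on these 7 alone. Part or all of that spread may be technical.

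After 24 h, most of the transcriptome differed between GA and Glu, in both directions and by similar amounts. Of the 12142 genes tested, 4948 rose in GA (40.8%) and 4317 fell (35.6%), which together is 76.3%. A call here is an adjusted p under 0.05 by the quasi-likelihood test of edgeR. It sets 3 libraries against 4, with the spread taken from the fit of all 38. The p-values were adjusted over all genes after Benjamini and Hochberg. The median risen gene was 2.49-fold higher, with the middle of the distribution between 1.77-fold and 4.19-fold (quartiles). The median fallen gene was 2.50-fold lower, with quartiles of 1.74-fold and 4.47-fold. Changes of at least 2-fold numbered 3229 up and 2774 down, or 26.6% and 22.8% of the genes tested. The excess of rises reversed at the upper end, since at least 8-fold there were 480 rises and 562 falls, and at least 64-fold 39 rises and 68 falls. A rise or fall is relative to the middle of the expressed genes, as the scaling sets it, and in bulk RNA fewer cells with a transcript and less of it per cell cannot be told apart. With the DESeq2 size factors 4662 of 9259 called genes rose, and with library totals alone 4418 of 8965, while the median log2 fold change over all genes moved from 0.11 to 0.03 and -0.01.

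The libraries themselves showed the same separation. In 5069 genes every GA library lay above every Glu library in CPM (the count relative to the scaled library total), and in 4340 every GA library lay below, which together is 77.5% of the genes tested. The groups overlapped in 2733 genes, of which 373 passed the test. Among the genes whose groups did not overlap, 4764 of those higher in GA and 4128 of those lower passed the test.

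**Figure D1:**
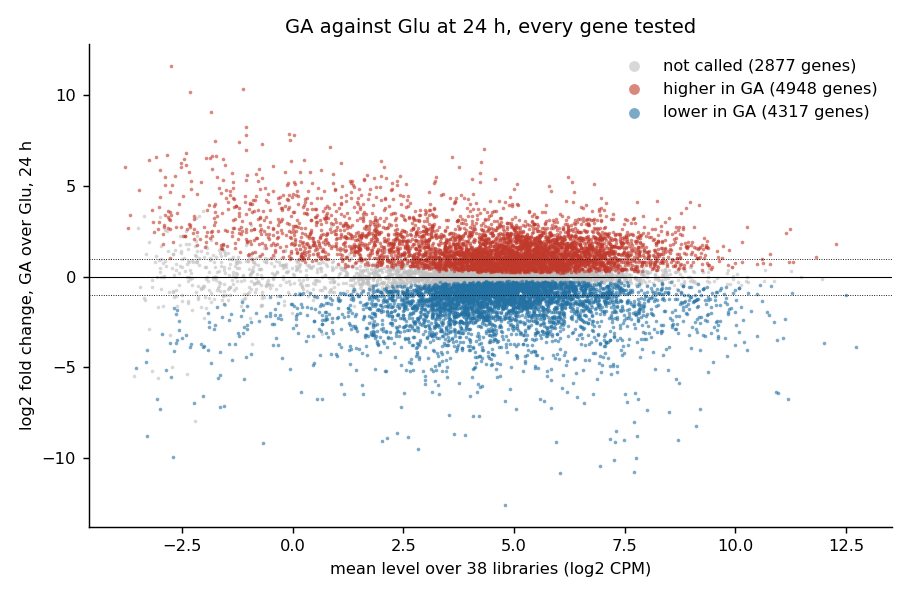
Each point is a gene, with its mean level over all 38 libraries in log2 CPM on the horizontal axis and its log2 fold change of GA over Glu at 24 h on the vertical axis. Red points rose (4948 genes), blue points fell (4317) and grey points did not pass the test, the dotted lines mark 2-fold, and the lowest levels hold more red than blue points.

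The direction of change was tied to abundance. When the genes were divided into 5 equal bins by their mean level over the 38 libraries, the least abundant bin (2429 genes, up to 2.95 log2 CPM) held 1028 rises and 630 falls. The next bin (2428 genes, 2.96 to 4.18 log2 CPM) held the reverse, 771 rises and 1060 falls. The middle bin was balanced at 921 and 943, and the upper bins again held more rises, 1084 against 825 and 1144 against 859. The median log2 fold change over all genes of a bin was 0.51 in the least abundant bin and -0.20 in the next. The bins were counted under the main scaling only, and library totals alone moved the median over all genes from 0.11 to -0.01. The share of genes that passed the test went from 68.3% in the least abundant bin to 82.5% in the most abundant. The median size of a called change was largest in the least abundant bin, at 2.15 on the log2 scale against 1.07 to 1.31 in the others. That median covers called genes only, and the call favours larger changes where counts are low.

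The mRNA pool was as concentrated in GA as in Glu but was made of other genes. The 100 most abundant genes held 27.4% ± 1.57 of all CPM in GA (SD, n = 3) and 27.4% ± 1.55 in Glu (n = 4). Of the genes in these lists, 34 were in both. Among the 100 of GA, 81 had risen, 4 had fallen and 15 did not pass the test. Among the 100 of Glu, 69 had fallen, 15 had risen and 16 did not pass. Being in the top list of a group favours genes that are high in it, so these counts describe the pools and are no separate support.

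The pair of genes that gained most CPM in GA, among genes changed at least 2-fold with no overlap of libraries, were Cz05g12170 and Cz04g09090. Cz05g12170 stood at 5568, 6732, 9249 and 5583 CPM in the Glu libraries and at 52650, 26800 and 46850 CPM in the GA libraries. All GA libraries were above all Glu libraries, and replicate 3 was the lowest of the GA libraries. This gene rose 6.21-fold (log2 fold change 2.63 ± 0.28, SE; adjusted p = 4.44e-10, edgeR), from 0.7% to 3.99% of all CPM. Its level was 348.5 ± 95.89 CPM in None, 177.3 ± 87.0 in S and 9627 ± 1827 in AZD at 24 h (SD, n = 4 each). The gene was thus high in each of the groups Glu and AZD and highest in GA. The GA minus Glu difference was smaller than AZD minus None (log2 difference -2.15 ± 0.39, SE; adjusted p = 1.8e-05, edgeR).

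Cz04g09090 stood at 2300, 2476, 2648 and 2295 CPM in Glu and at 9670, 8438 and 9144 CPM in GA, with no overlap and little spread in either group. It rose 3.74-fold (log2 1.90 ± 0.13, SE; adjusted p = 1.65e-14, edgeR). In None it stood at 170.5 ± 6.711 CPM, in S at 163.9 ± 3.841 and in AZD at 1301 ± 213.7 (SD, n = 4 each). The order of the group means was the same as in Cz05g12170 except that Glu lay above AZD. Its rise in GA against Glu was smaller than that in AZD against None (log2 difference -1.03 ± 0.18, SE; adjusted p = 1.62e-05, edgeR).

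Cz14g01090 and Cz18g11010 lost most CPM by the same rule. Cz14g01090 stood at 11910, 13610, 15840 and 12210 CPM in Glu and at 876.2, 546.4 and 1298 CPM in GA. It fell 14.8-fold (log2 -3.88 ± 0.26, SE; adjusted p = 5.25e-15, edgeR), again with no overlap. In None it stood at 10360 ± 1519 CPM and in AZD at 1070 ± 160.4 (SD, n = 4 each), and neither Glu against None nor GA against AZD was called for it (adjusted p = 0.111 and 0.406, edgeR). The GA minus Glu and AZD minus None differences differed by -0.61 ± 0.30 on the log2 scale and were not called apart (SE; adjusted p = 0.0924, edgeR).

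Cz18g11010 stood at 8220, 9709, 10310 and 9246 CPM in Glu and at 97.5, 87.59 and 153.3 CPM in GA. It fell 83.1-fold (log2 -6.38 ± 0.33, SE; adjusted p = 5.26e-18, edgeR). Its levels were 5726 ± 558.2 CPM in None and 620.3 ± 66.13 in AZD (SD, n = 4 each). Here Glu was above None and GA below AZD, and the fall in GA against Glu exceeded that in AZD against None (log2 difference -3.17 ± 0.35, SE; adjusted p = 2.05e-09, edgeR).

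**Figure D2:**
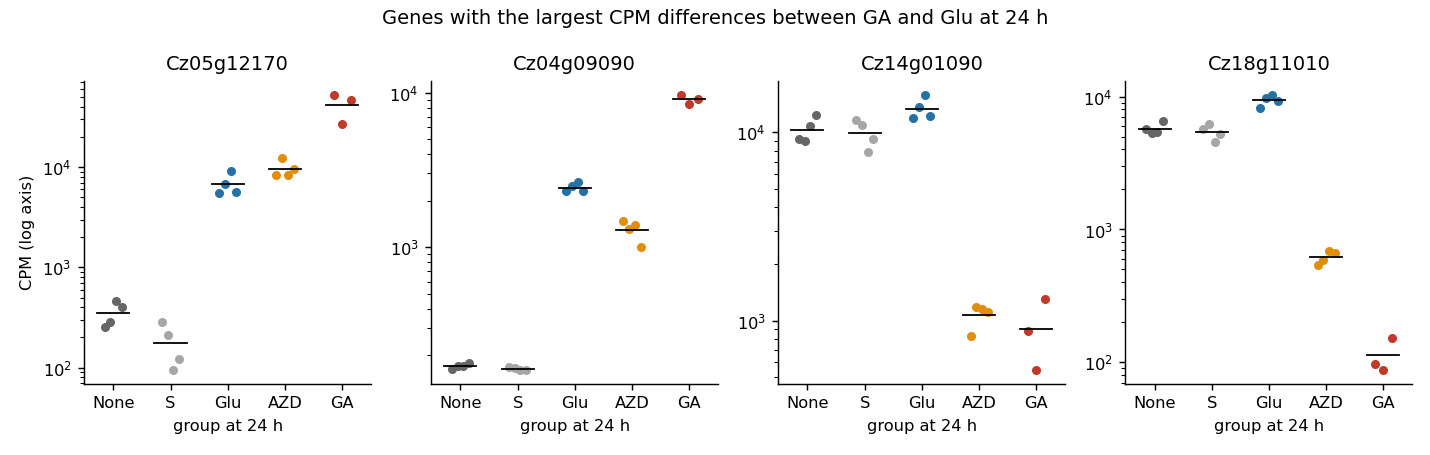
Each point is a library at 24 h, with CPM on a log axis, for the 4 genes with the largest CPM differences between GA and Glu. Black lines are group means (3 GA libraries, 4 in each other group), the GA libraries of Cz05g12170 and Cz04g09090 lie above all others, and in Cz18g11010 the GA libraries, at 87.59 to 153.3 CPM, lie below all others.

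The genes that changed between GA and Glu were then followed through the other groups, as the median log2 level over the mean of None at the same time. The GA and Glu values at 24 h are set in part by the choice of genes, and the others are not. The 3229 genes that rose at least 2-fold stood at 1.37 in GA, -0.46 in Glu, 1.11 in AZD and 0.01 in S at 24 h. Single libraries ran from 1.33 to 1.39 in GA, from -0.59 to -0.38 in Glu and from 1.07 to 1.16 in AZD. The choice of genes fixes the gap between GA and Glu and favours a higher value in GA than in AZD. The 2774 genes that fell at least 2-fold stood at -1.74 in GA, 0.24 in Glu, -1.33 in AZD and -0.02 in S. Glu against None and GA against AZD, which share libraries with GA against Glu, gave these counts. Of the 3229 genes, 717 were higher and 1585 lower in Glu than in None, where 32.8% and 36% of all genes tested were (68.8% in all), and 1073 were higher and 430 lower in GA than in AZD, where 23.3% and 23.1% were (46.5% in all). Of the 2774 genes, 1203 were higher and 845 lower in Glu than in None, and 391 were higher and 1120 lower in GA than in AZD. In both sets of genes GA lay on the AZD side of None and beyond AZD, and Glu lay on the other side of None. The choice of genes favours the place of GA beyond AZD and that of Glu. Over all 12142 genes the same median lay between -0.05 and 0.00 in every group at 24 h.

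At 1 h the same genes had moved less. The genes that rose at least 2-fold at 24 h stood at 0.63 in GA, 0.64 in AZD and 0.08 in Glu at 1 h, with Glu replicate 4 the highest of its group at 0.31. The genes that fell stood at -0.50 in GA, -0.52 in AZD and -0.13 in Glu, with Glu libraries from -0.33 to 0.02. Over all genes tested the median at 1 h was 0.12 in GA, 0.10 in AZD and -0.01 in Glu.

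**Figure D3:**
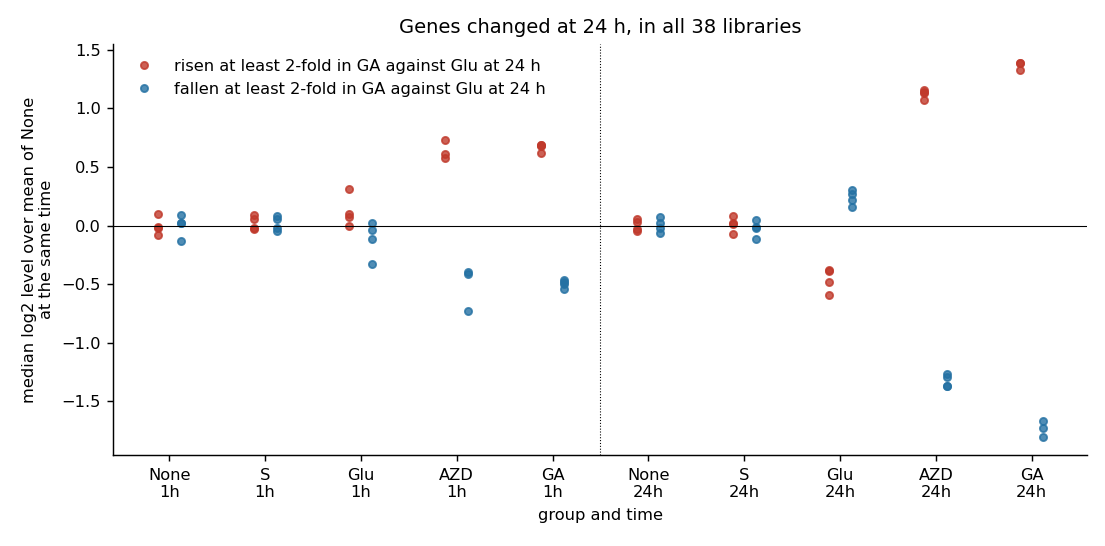
Each point is a library, placed at the median log2 level, over the mean of None at the same time, of the 3229 genes risen (red) or the 2774 genes fallen (blue) at least 2-fold in GA against Glu at 24 h. At 24 h the AZD and GA libraries lie apart from None and S in both sets and the Glu libraries lie on the other side of 0, and at 1 h AZD and GA lie near 0.6 and -0.5.

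The genes that rose in GA took 66.8% ± 0.643 of all CPM in GA (SD, n = 3) and 25.9% ± 1.18 in Glu (n = 4), values that the choice of genes fixes in direction. In libraries that the choice did not use, the same genes took 57.3% ± 1.17 in AZD, 27.4% ± 1.17 in None and 28.2% ± 1.56 in S at 24 h (n = 4 each). The genes that fell took 16.3% ± 0.503 in GA and 55.8% ± 1.33 in Glu, and 25.3% ± 1.14 in AZD, 55.1% to 58.4% in None (lowest and highest library) and 55.1% ± 2.09 in S. None and Glu thus gave nearly the same share of the pool to each set of genes.

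A small number of genes went from near silence to clear expression, or the reverse. By a limit of under 1 CPM in every library of a group and at least 10 CPM in every library of the other, 29 genes (0.239% of those tested) were on in GA and off in Glu, and 54 (0.445%) were off in GA and on in Glu. With the DESeq2 size factors or library totals these counts were 23 to 24 and 52 to 56.

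The medians of the 54 genes off in GA formed a descending series over the groups at 24 h. The choice of genes fixes Glu above GA, and single genes departed from the order of the other groups. The median of their group means was 90.7 CPM in None, 86.6 in S, 22.6 in Glu, 5.64 in AZD and 0.387 in GA. In 52 of the 54 every None library held at least 10 CPM, and in 13 every AZD library held under 1 CPM. In AZD against None, which shares no library with GA against Glu, 53 of the 54 fell and 0 rose (73.4% of all genes tested passed there, 35.2% as rises and 38.2% as falls). In 49 of the 54 the GA minus Glu and AZD minus None differences were called apart (52.9% of all genes tested). At 1 h, 20 of the 54 fell in GA against Glu and 7 rose, where 26.7% and 31.6% of all genes did (58.3% in all). The difference between 1 h and 24 h passed its test in all 54 (65.8% of all genes tested). These genes were chosen by a large fall at 24 h, which favours a call in both tests of differences, so these counts are no separate support.

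The 29 genes on in GA had a median of group means of 20.0 CPM in GA, 0.450 in Glu, 12.5 in AZD, 1.48 in None and 1.44 in S. In AZD against None 23 of the 29 rose and 2 fell, where 35.2% and 38.2% of all genes tested did. In 15 of the 29 every AZD library held at least 10 CPM. At 1 h, 11 rose in GA against Glu and 3 fell, where 31.6% and 26.7% of all genes did, so the rises at 1 h were near that share. By the median, Glu was the lowest group for these genes, as GA was for the other set, which the choice of genes favours in each case.

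**Figure D4:**
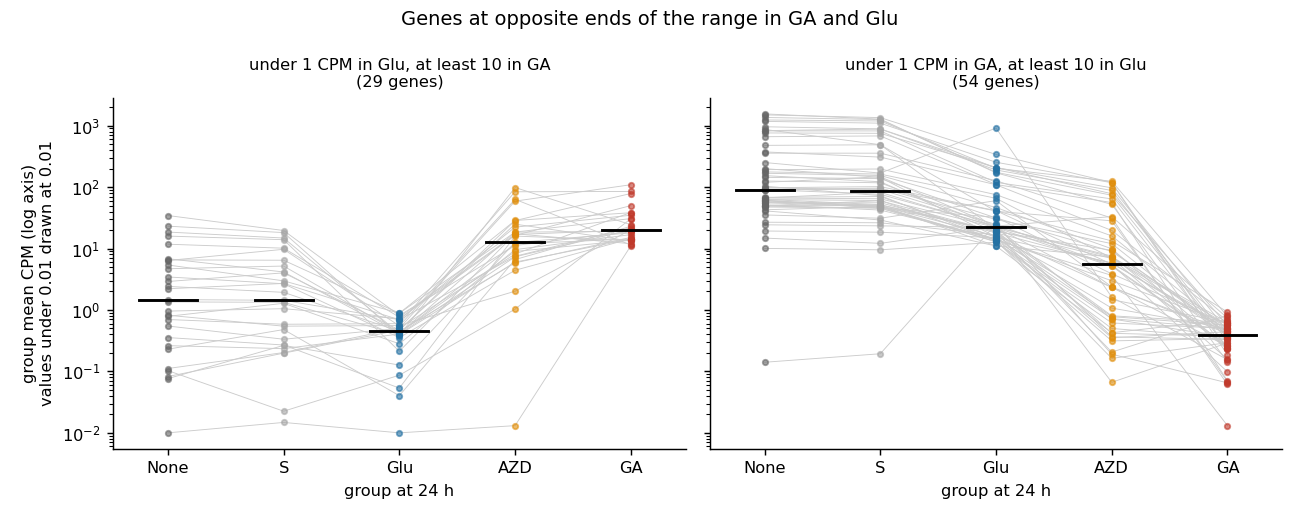
Each point is a gene's group mean at 24 h in CPM on a log axis, with values under 0.01 drawn at 0.01, grey lines joining a gene's values and black bars at medians over genes. The left panel holds the 29 genes on in GA and off in Glu (median 20.0 CPM in GA, 0.450 in Glu), and the right panel the 54 genes off in GA, whose medians descend from 90.7 CPM in None through Glu and AZD to 0.387 in GA.

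Set beside AZD against None at 24 h, which shares no library with it, GA against Glu moved most of its called genes the same way. Of the 4948 genes risen in GA, 3255 also rose in AZD against None (65.8% of the former list and 76.1% of the latter), 657 fell and 1036 did not pass. Of the 4317 fallen, 3137 also fell (72.7% and 67.7%), 265 rose and 915 did not pass. Which direction was shared more depends on the list taken as the base, and the rises shared became 3250 of 4662 with the DESeq2 size factors, with 3100 falls shared. Of the 1235 genes that fell at least 4-fold, 1157 fell in AZD against None (93.7%, and 25% of all falls there). Of the 1308 that rose at least 4-fold, 943 rose there (72.1%, and 22.1% of all rises there). Over all genes tested, 35.2% rose and 38.2% fell in AZD against None (73.4% in all). No difference between the shares of rises and falls was tested.

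The sizes of the changes often differed. The test of GA minus Glu against AZD minus None passed for 6424 genes (52.9%), with the more positive difference in GA against Glu for 3326 (27.4%) and the more negative for 3098 (25.5%). The first make up 51.8% of the calls, a share that became 41.6% with the DESeq2 size factors and 41.2% in a fit of the 4 groups alone, so the majority depends on the scaling. Among the 3137 genes fallen in both, 1652 passed this test, 1069 with the deeper fall in GA against Glu and 583 with the deeper fall in AZD against None. Among the 3255 risen in both, 1384 passed, 763 with the larger rise in GA against Glu and 621 with the larger rise in AZD against None. All of the 657 and the 265 genes that went opposite ways passed it, which their calls in opposite directions nearly ensure. The number that fell in GA and rose in AZD was 408 with the DESeq2 size factors, against 265.

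The largest opposite changes, by a rule that asked for at least 10 CPM and no overlap of libraries in either pair, were in Cz06g13160 and Cz02g00230 among genes risen in GA and fallen in AZD. Cz06g13160 stood at 1.69, 1.58, 2.14 and 0.604 CPM in Glu and at 34.21, 27.49 and 42.52 in GA, a rise of 22.6-fold (log2 4.50 ± 0.47, SE; adjusted p = 2.16e-10, edgeR). In None it stood at 10.4, 13.64, 37.1 and 20.37 CPM and in AZD at 4.82, 5.21, 2.25 and 6.26. The AZD libraries were all below the None libraries, a fall of 4.4-fold (log2 -2.14 ± 0.42, SE; adjusted p = 2.81e-05, edgeR). Glu was the lowest group at 24 h for this gene, and GA was not called apart from None (log2 0.77 ± 0.42, SE; adjusted p = 0.0936, edgeR).

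Cz02g00230 rose 3.90-fold in GA, from 3.34, 2.66, 2.95 and 1.27 CPM in Glu to 9.48, 7.73 and 13.01 in GA (log2 1.96 ± 0.39, SE; adjusted p = 2.87e-05, edgeR). In AZD it fell 23.1-fold, from 65.31, 86.16, 157.4 and 89.75 CPM in None to 4.11, 7.71, 2.39 and 3.37 (log2 -4.53 ± 0.40, SE; adjusted p = 3.71e-12, edgeR). Glu, AZD and GA all lay far below None for this gene, with GA the least low. The contrast between the differences was 6.64 ± 0.63 on the log2 scale in Cz06g13160 and 6.50 ± 0.55 in Cz02g00230 (SE; adjusted p = 8.45e-11 and 6.91e-12, edgeR).

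In the other direction stood Cz06g24110 and Cz02g10040, which fell in GA against Glu and rose in AZD against None. Cz06g24110 stood at 568.6, 543.2, 745.0 and 523.8 CPM in Glu and at 82.64, 72.56 and 87.08 in GA, a fall of 7.37-fold (log2 -2.88 ± 0.31, SE; adjusted p = 4.85e-10, edgeR). In None it stood at 15.41 to 19.44 CPM, and in AZD at 48.73, 67.31, 48.71 and 47.89. GA and AZD both lay between None and Glu, and GA was not called apart from AZD (log2 0.60 ± 0.28, SE; adjusted p = 0.0754, edgeR), although no library overlapped. Cz02g10040, at higher levels, had the same order of None, GA and Glu. It stood at 4757, 6099, 7013 and 5006 CPM in Glu and at 594.5, 637.7 and 765.0 in GA (log2 -3.10 ± 0.51, SE; adjusted p = 1.81e-06, edgeR), against 401.8 ± 62.12 in None and 986.9 ± 161.9 in AZD (SD, n = 4 each). The contrast between the differences was -4.50 ± 0.41 in Cz06g24110 and -4.40 ± 0.66 in Cz02g10040 (log2, SE; adjusted p = 3.79e-11 and 9.75e-07, edgeR).

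The last comparison asked how far the difference between GA and Glu at 24 h was already present at 1 h, in libraries that the 24 h comparison did not use. The sample titles of 1 h and 24 h begin differently, and an effect of time cannot be told apart from whatever that prefix marks. At 1 h, 3836 genes had risen (31.6%) and 3247 had fallen (26.7%), and changes were smaller, with an SD of log2 fold changes over all genes of 1.10 at 1 h and 1.81 at 24 h. Across the 12142 genes the log2 fold changes at the 2 times had r = 0.32 and Spearman's rho 0.37, as a description over genes that are measured in the same libraries and are not independent replicates.

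The test of the difference between the times passed for 7986 genes (65.8%), 4381 with the more positive difference at 24 h (36.1%) and 3605 with the more negative (29.7%). Of the genes risen at 24 h, 2275 had risen at 1 h (46% of that list and 59.3% of the rises at 1 h), 2095 did not pass at 1 h and 578 had fallen. Of those fallen at 24 h, 1914 had fallen at 1 h (44.3% and 58.9%), 1595 did not pass and 808 had risen. Of the 3690 genes that passed only at 24 h, 3044 also passed the test of the difference. So did all 578 and 808 that went opposite ways, which their calls in opposite directions nearly ensure. Another 1508 genes passed at 1 h and not at 24 h, and in 1088 of them the difference passed its test.

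These class counts rest on how the 1 h libraries are scaled. The majority of rises at 1 h, 54.2% of the called genes, became a minority of 44.9%, 45.5%, 43.8% and 43.5% without GA replicate 1, 2, 3 or 4 at 1 h, 44.8% with no filter and 45.8% with only the groups compared. With library totals alone it was 20.9%, and with those totals the classes held 987 genes risen and 2983 fallen at both times, 1238 that fell and then rose and 251 that rose and then fell. The share with the more positive difference at 24 h went from 54.9% to 68.8%, and the test of the difference called 8133 genes. Glu replicate 4 at 1 h lay farther from its fellow replicates, at 0.70, than the other 7 libraries of GA and Glu at 1 h, at 0.40 to 0.58. Without it, 7108 genes were called at 1 h and 7766 by the test of the difference.

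Under the main scaling, the share of changed genes that had already moved at 1 h varied little over most sizes of change. Of the genes risen at 24 h by at least 2-fold, 49.1% had risen at 1 h (41.3% of all rises at 1 h), and the share was 50.8% at 4-fold (17.3%), 47.7% at 8-fold (5.97%) and 44.1% at 16-fold (2.45%). It was 37.1% at 32-fold, or 36 of 97 genes (0.938%), and 25.6% at 64-fold, or 10 of 39 (0.261%). Of the genes fallen by at least 2-fold, 45.4% had fallen at 1 h (38.8% of all falls at 1 h), and the share was 42% at 4-fold (16%), 39.9% at 8-fold (6.9%), 40.8% at 16-fold (3.14%), 33.1% at 32-fold (1.26%) and 30.9% at 64-fold, or 21 of 68 (0.647%). Over all genes tested, 31.6% had risen and 26.7% had fallen at 1 h. The share of rises at 64-fold lay below the first of these values, and the share of falls at 64-fold lay near the second. The steps are nested and no difference between them was tested. They were counted under the main scaling only, on which the calls at 1 h depend. With library totals alone, 987 genes had risen at both times, against 2275, and 2983 had fallen at both, against 1914. Among the 4 genes with the largest CPM differences, Cz04g09090 and Cz14g01090 did not pass at 1 h, with log2 fold changes of 0.15 ± 0.12 and 0.21 ± 0.21 (SE; adjusted p = 0.314 and 0.382, edgeR). Their differences between the times were 1.76 ± 0.18 and -4.10 ± 0.32 (SE; adjusted p = 4.8e-10 and 9.16e-13, edgeR). Cz05g12170 and Cz18g11010 had moved the same way at 1 h, by 1.06 ± 0.26 and -2.05 ± 0.23 (SE; adjusted p = 0.000751 and 3.72e-09, edgeR), and moved further by 24 h. In Cz18g11010 the Glu libraries at 1 h stood at 2851, 3474, 3380 and 1100 CPM, the last being replicate 4.

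**Figure D5:**
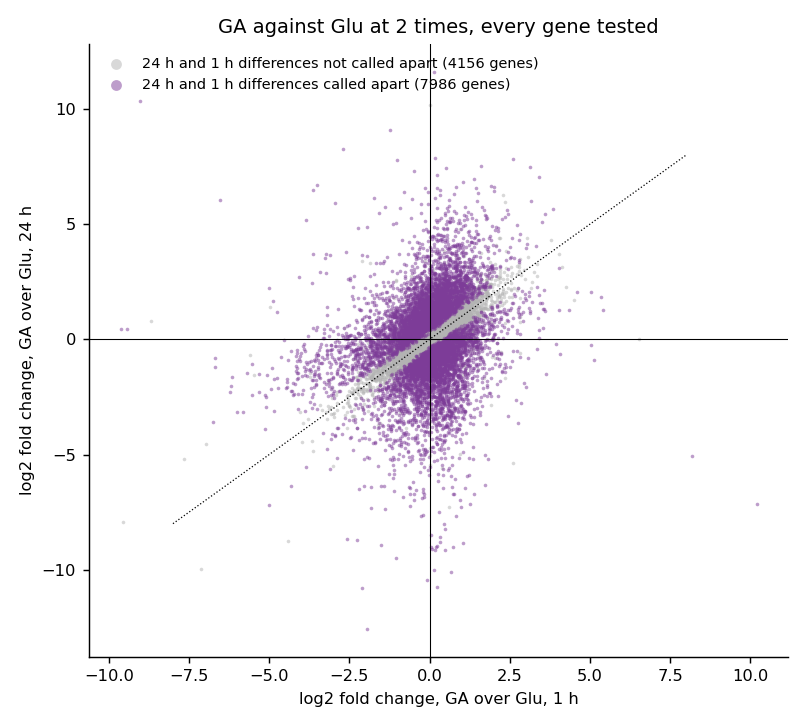
Each point is a gene, with its log2 fold change of GA over Glu at 1 h on the horizontal axis and at 24 h on the vertical axis. Purple points (7986 genes) passed the test of the difference between the times, the dotted line marks equal changes, and the cloud is taller than it is wide (SD 1.81 at 24 h against 1.10 at 1 h).

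The largest reversals between the times, with at least 10 CPM at each time and no overlap at either, were the following. Cz01g25050 stood at 178.1, 249.3, 92.64 and 141.6 CPM in Glu and 39.14, 40.84, 16.69 and 13.14 in GA at 1 h, a fall of 6.05-fold (log2 -2.60 ± 0.50, SE; adjusted p = 3.39e-05, edgeR). At 24 h it stood at 57.53, 88.72, 77.25 and 42.57 in Glu and 993.4, 414.8 and 1374 in GA, a rise of 13.9-fold (log2 3.80 ± 0.53, SE; adjusted p = 1.01e-07, edgeR). GA was below Glu at 1 h and above it at 24 h in every library, with a wide spread within GA at both times.

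Cz15g02150 fell 9.09-fold at 1 h, from 11.48, 18.36, 13.62 and 22.4 CPM in Glu to 2.60, 1.91, 2.06 and 0.798 in GA (log2 -3.18 ± 0.26, SE; adjusted p = 1.34e-12, edgeR). At 24 h it rose 2.62-fold, from 106.1, 104.0, 88.9 and 108.7 CPM in Glu to 249.4, 313.4 and 237.9 in GA (log2 1.39 ± 0.23, SE; adjusted p = 1.79e-06, edgeR). Its level at 24 h was above that in None (17.9 ± 1.844 CPM) in both Glu and GA, and in AZD it was 39.84 ± 7.548 (SD, n = 4 each).

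The rule gave, for a rise at 1 h with a fall at 24 h, Cz15g01010 and Cz04g04130. Cz15g01010 stood at 146.8, 155.2, 244.9 and 212.4 CPM in Glu and at 0.332, 0 and 0.708 in GA at 24 h, and GA replicate 3 held no count of it. Its summed counts, 42596 in Glu and 50 in GA, give a level 472-fold lower in GA, with a 95% interval of 358 to 636 (exact Poisson interval on the GA count, which covers counting error only). The fitted log2 fold change of -8.99 became -10.07 without GA replicate 4 and -8.48 without GA replicate 3, so its size rests on single libraries. At 1 h it stood at 292.6, 359.1, 323.3 and 159.2 CPM in Glu and 532.0, 608.4, 374.9 and 376.0 in GA, a rise of 1.67-fold (log2 0.74 ± 0.32, SE; adjusted p = 0.0487, edgeR). The rise at 1 h lost its call in 12 of the 15 other settings run, with adjusted p from 0.0523 to 0.576 in those, and leaving out any 1 h library except Glu replicate 2 ended it.

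Cz04g04130 had the same course. At 24 h it stood at 1013, 860.9, 1289 and 944.0 CPM in Glu and at 6.21, 2.73 and 10.65 in GA, 156-fold lower (log2 -7.29 ± 0.44, SE; adjusted p = 3.14e-16, edgeR). At 1 h it stood at 619.6, 820.5, 677.3 and 280.8 in Glu and at 1314, 1281, 1067 and 1021 in GA (log2 0.97 ± 0.29, SE; adjusted p = 0.00529, edgeR), and with library totals alone this rise was 0.43 with an adjusted p of 0.158. In AZD against None at 24 h, Cz15g01010 and Cz04g04130 fell 9.42-fold and 9.03-fold (adjusted p = 4.28e-10 and 6.63e-11, edgeR), less than in GA against Glu (log2 differences -5.76 ± 0.58 and -4.11 ± 0.46, SE; adjusted p = 3.3e-10 and 3.05e-09, edgeR).

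The changed genes were spread over the whole set of IDs. By the prefix of the ID, used here only as a label (Cz01 to Cz19 and UNPL), 73.8% to 79.1% of the tested genes passed, against 76.3% over all. The risen share of the called genes ran from 49.9% (Cz04) to 58.6% (Cz19) in 19 of the 20 prefixes and was 61.7% in Cz15, where 198 of 424 genes rose and 123 fell. Genes next to each other in ID order had little in common, with r = 0.07 between their log2 fold changes over 11697 pairs and 0.00 at 50 steps apart.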

How the data were processed

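RNA-seq of wild-type C. zofingiensis was deposited as 1 table of 38 libraries by 12459 genes. Its values were taken as estimated counts deposited without normalization, although 0% of the nonzero values are whole numbers (within 1e-06). Whether they had been rescaled before deposit was not tested. The Poisson interval and the chi-square values treat them as read counts. Reads of poly(A)-selected libraries were quality trimmed with BBDUK, per the labels' protocols. Per the submitters' processing notes, Salmon and DESeq2 1.46.0 were used; what each did, the build and gene models, and any strand setting are details not given in the sources used here, so overlapping genes and near-identical copies are uncertain. Libraries were mapped to groups by the labels, and 0 columns belonged to other samples.

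Counts were rounded to whole numbers, and the default filter of edgeR left 12142 genes. It asks for 15 counts in total and for the CPM that 10 counts make in a library of median size. As many libraries must reach this CPM as the smallest group holds, whatever their groups. Libraries were scaled by TMM, and all 10 groups were fitted together in edgeR 4.0.16 (R 4.3.3) with quasi-likelihood tests, 28 residual degrees of freedom and adjustment over all genes after Benjamini and Hochberg. A call is an adjusted p under 0.05. CPM and log2 CPM (prior count 2) were computed from the same scaling. The scripts were tested on simulated data.

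No GA or Glu replicates at 24 h looked like 1 library deposited again, since every pair differed by more than counting error (chi-square over its degrees of freedom 27.9 to 109). Deviations of GA and Glu libraries with the same number correlated at -0.18, -0.33 and -0.23, so the numbers were not taken as pairs.

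The 7 libraries and the rules for named genes were chosen with earlier results of these data known. The table pairs no ID with a name, so at most 2 IDs per direction were named. For GA against Glu at 24 h these have the largest difference in mean CPM among called genes changed at least 2-fold with no overlap of libraries. For the comparisons with 1 h and with AZD against None they are called, go opposite ways, reach 10 CPM in a group of each pair, overlap in neither pair and have the largest difference of differences (328 and 433 genes, and 300 and 201, met these terms). Pathway lists could not be applied without gene names. Alternatives were the DESeq2 size factors, library totals, the DESeq2 test (1.42.0), no filter, a filter of 1 CPM in 3 libraries, only the groups compared, a replicate block and each library left out. Those for AZD against None were added after the data were seen.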

Additional observations from a re-analysis of the deposited data

Results flagged for a closer look

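Differences that changed with time or with the background of glucose were tested as differences of differences in the fit over all libraries. The GA minus Glu difference was called apart between 24 h and 1 h in 7986 genes, and apart from AZD minus None at 24 h in 6424 genes. Among the named genes, the log2 difference of 24 h less 1 h was 6.3965 in Cz01g25050 and 4.5723 in Cz15g02150, where GA was below Glu at 1 h and above it at 24 h. It was -9.7321 in Cz15g01010 and -8.2543 in Cz04g04130, where the order was the reverse. The value of Cz15g01010 was -10.81 without GA replicate 4 at 24 h and -9.21 without GA replicate 3, which held no count of it, so its size is loosely set. The log2 difference of GA minus Glu less AZD minus None was 6.6367 in Cz06g13160 and 6.4976 in Cz02g00230. It was -4.4964 in Cz06g24110 and -4.399 in Cz02g10040. These genes were named for such differences, so the sizes are those of the extremes.

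In Cz06g24110, AZD replicate 2 at 24 h stood at 67.31 CPM, far from the other 3 AZD libraries at 47.89 to 48.73 CPM. Of 36 sets of 4 libraries looked at for a far sample in the named genes, this was the 1 found, where chance marks about 1 in 20.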

How the results depend on the processing

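The number of genes called in GA against Glu at 24 h was 8862 to 9096 with 1 library left out and 8965 to 9452 under the other settings. Changes of at least 2-fold numbered 2887 to 3264 up and 2725 to 3064 down over all settings. The number called at 1 h was 5969 to 7202, that for the difference between the times 7614 to 8133, and that for the difference from AZD against None 5921 to 7297. AZD against None gave 8663 to 9075. With the replicate block, GA against Glu at 24 h gave 9060 genes, 1 h 6847, the times 7704, the difference from AZD against None 6059 and AZD against None 8757. All 116 alternatives of these counts stayed within 1.5 times the first value. No log2 fold change of a named gene changed sign. The split by direction was less stable, since the majority of rises became a minority with library totals alone. It went from 53.4% to 49.3% of the called genes at 24 h and from 54.2% to 20.9% at 1 h. DESeq2 shared 8991 of its 9318 calls at 24 h. Of the values for single genes and classes, 628 stayed the same. For a gene that means the same sign and call, and for a count a value within 1.5 times the first. A further 13 lost a call (12 of them the 1 h rise of Cz15g01010), and 7 class counts moved beyond that limit. Genes fallen in GA and risen in AZD numbered 408 with the DESeq2 size factors, 433 with DESeq2 and 483 with only the groups compared, against 265, and the cause was not tested. At this depth the called share was 68.3% in the least abundant bin and 82.5% in the most abundant.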
